A study of Rattus norvegicus with 20 samples.

Results

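The genes of the cytosolic ribosomal proteins were examined in the right ventricle of rats whose pulmonary artery had been banded. They were taken as every gene whose symbol was Rpl or Rps followed by a digit, or Rplp0, Rplp1, Rplp2 or Rpsa, without the Rps6k kinases, in any case of letters. Where a gene had several transcript IDs, the ID with the highest mean was kept. This gave 86 genes out of 17297 in the table, from 90 IDs. Of the 86, 46 encode canonical proteins of the large subunit and 31 of the small subunit. A further 6 are paralogs of such proteins (Rpl3l, Rpl22l1, Rpl36al, Rpl39l, Rps27l and Rps4y2), and 2 are pseudogenes (Rpl37a-ps1 and Rps4x-ps1). The last, Rps19bp1, is admitted by its symbol but encodes no subunit; in human cells its protein binds Rps19 and the deacetylase Sirt1.

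A pulmonary band constricts the outflow of the right ventricle into the lungs, and the labels describe the banded ventricles as pressure overloaded and the sham ventricles as healthy. All animals were Wistar rats operated on as pups, and the labels name no allele and no drug. The sham groups were sampled 4 weeks after surgery at an age of 7 weeks (5 libraries) and 8 weeks after surgery at an age of 11 weeks (5 libraries). The banding groups were sampled at the same times and ages (5 and 4 libraries), with no values analysed here for replicate 2 of banding at 8 weeks. Total RNA of the ventricle was sequenced after removal of ribosomal RNA, so the values describe the messengers of the ribosomal proteins, not ribosomes. The labels number the replicates without saying that each came from its own animal, so the p-values measure the spread between these libraries. Age goes with time after surgery, and these cannot be told apart.

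A ribosome consists of a small subunit, which reads the messenger, and a large subunit, which joins the amino acids. Each cytosolic ribosome holds about a copy of every protein, and most of these genes are expressed together in nearly all cells. Most of their messengers begin with a run of pyrimidines, the 5′ terminal oligopyrimidine tract, through which the kinase mTOR controls how much they are translated. A few proteins have paralogs with a tissue pattern: Rpl3l replaces Rpl3, the protein nearest to the catalytic centre of the large subunit, in heart and skeletal muscle, as described in mouse.

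The 19 libraries held 2.70 to 8.54 M recovered reads each, with a median of 5.79 M. The deposited values are normalized counts, that is, reads scaled by the size factor of their library. They are not divided by gene length, so they are compared between libraries for 1 gene and not between genes. Cardiac muscle markers were abundant in every library: the summed normalized counts of 7 measured cardiomyocyte markers ran from 397445 to 561133. In 7 libraries the atrial light chain Myl7 was above 1000 normalized counts (at 4 weeks sham replicates 1 and 3 and banding replicate 2; at 8 weeks sham replicates 1, 2 and 5 and banding replicate 3), against 24.7 to 743 in the other 12. Results were computed with and without these 7. Without them 3 sham and 4 banding libraries remained at 4 weeks, and 2 and 3 at 8 weeks. That setting called 1840 of all 10926 IDs at 4 weeks and 2553 at 8 weeks, against 2086 and 3644 with all libraries. The summed macrophage markers ran from 2728 to 5122 in sham and from 4676 to 6023 in banding at 4 weeks, and from 2868 to 4072 and from 5350 to 6351 at 8 weeks. Of these 10 markers 7 were higher at 4 weeks and 9 at 8 weeks, and 0 were lower. Of the cardiomyocyte markers Myh7 rose by 3.02 and 3.22 on the log2 scale at 4 and 8 weeks. Myh6 had -0.71 and -1.30 and Tnni3 -0.46 and -0.84, and all of these were called. In that list of 7, 1 was higher, 2 lower and 4 not called at 4 weeks, and 2, 2 and 3 at 8 weeks. Of 7 fibroblast markers 1 was higher, 1 lower and 5 not called at both times. Over all IDs 9.27% were higher and 9.82% lower at 4 weeks, and 16.7% and 16.6% at 8 weeks. Of 7 smooth muscle and pericyte markers 3 were higher at both times and 4 were not called. Over these 7 the median log2 change was -0.32 at 4 weeks and 0.38 at 8 weeks. Of 8 endothelial markers 2 and then 3 were higher. Of 3 red cell markers 2 were higher at 8 weeks, where the summed list ran from 1445 to 3097 in sham and from 2363 to 12097 in banding. Of 7 atrial markers 1 was higher at both times, by 4.67 and 4.15, and 6 were not called. Among those 6 was Myl7, with -1.17 and -2.99. The summed atrial list ran from 2425 to 26875 in sham and from 9193 to 31095 in banding at 4 weeks. At 8 weeks it ran from 2131 to 57853 and from 25848 to 37074. The Myl7 limit therefore stands for that gene and not for the whole atrial list. The part of these markers in the results below, the pair Rpl3 and Rpl3l included, was not tested. In bulk tissue, fewer cells of a type and less RNA per cell cannot be told apart.

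The genes differed widely in how many reads were assigned to them. The highest mean was that of Rplp0, the base of the stalk that binds translation factors, with 4073 normalized counts over the 19 libraries. Next came Rpl4 with 1746. At the other end Rps9 and the pseudogene Rpl37a-ps1 were listed at 0 in every library and Rps19 had a mean of 0.047. In all, 62 of the 86 genes reached the minimum for testing, 10 or more normalized counts in 4 or more libraries. The other 24 had means of at most 6.79. Among the canonical proteins 34 of 46 of the large subunit and 22 of 31 of the small subunit passed, as did 5 of the 6 paralogs and Rps19bp1.

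The untested genes include familiar ones. Rps6, the substrate of the S6 kinases, had a mean of 3.36, the stalk proteins Rplp1 and Rplp2 had means of 5.04 and 1.16, and Rpl39 and its paralog Rpl39l had means of 5.38 and 1.91. Rpl36a had a mean of 2.73. Apart from Rpl39l, known in mouse from male germ cells, these proteins are part of ordinary ribosomes. The values describe how many reads were assigned to an ID, and whether low ones reflect low expression was not tested. The rat reference (GRCr8) lists 1104 genes named as any of the 86 plus -ps or L and a number, paralogs such as Rpl22l1 included. These were counted as copies by name and not by sequence, and whether they took reads was not tested. The canonical genes that passed have a median of 13.5 such copies (1 to 36) and those that did not have 16 (5 to 29). Rpl3 has 6, Rpl41 has 1 and Rpl3l has 0. Where a gene has near-identical copies its reads can be split between them, so such values are uncertain.

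**Figure D1:**
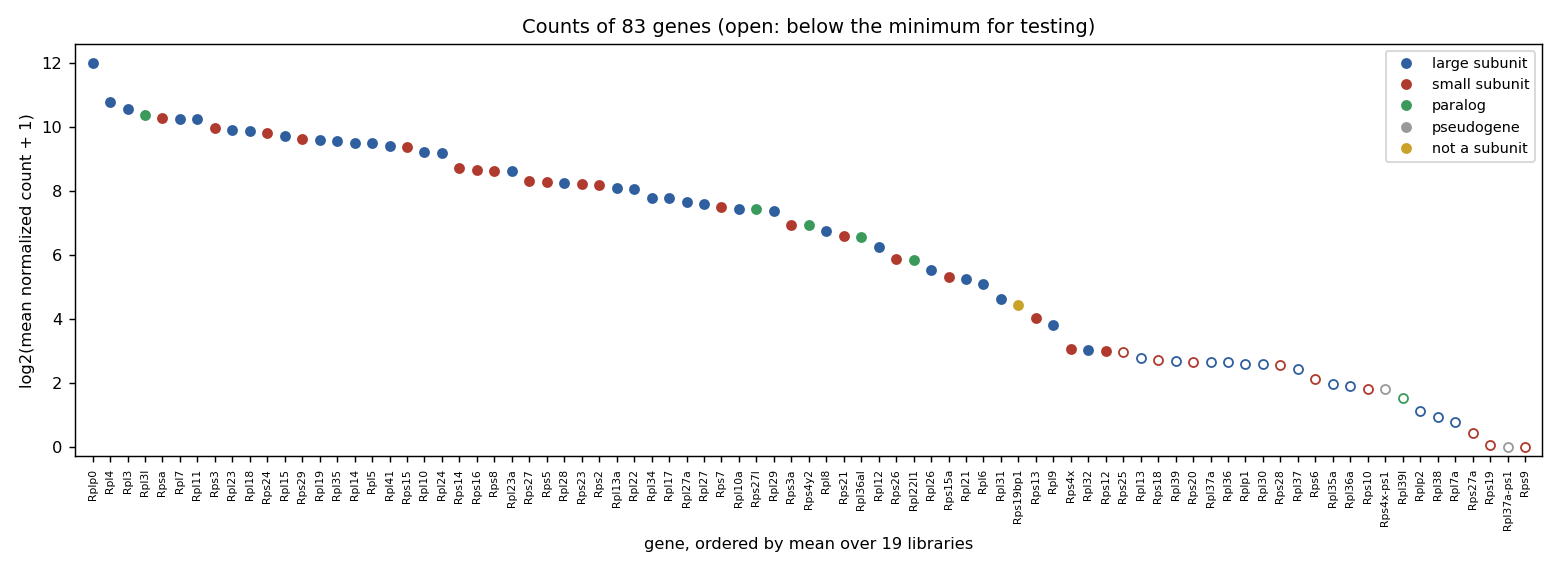
Mean normalized count of 83 of the 86 genes over 19 libraries, as log2(mean + 1), ordered from highest to lowest and coloured by class. Filled points passed the minimum for testing (59 of the genes drawn) and open points did not (24 genes, all with means of at most 6.79).

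At 4 weeks after banding, 5 of the 62 tested genes differed from sham at a limma adjusted p under 0.05, which is 8.06%, against 19.1% of all 10926 IDs tested. Rpl3, Rps24, Rps16 and Rpl41 were higher (9.27% of all IDs were called higher) and Rpl3l was lower (9.82% were called lower). At 8 weeks the count was 9 of 62, or 14.5%, against 33.4% of all IDs. Of these, 8 were higher, among them Rpl3, Rps27l, Rps24, Rps16, Rpl41, Rplp0 and Rpl4 (16.7% of all IDs were called higher), and Rpl3l was lower (16.6%). The share of called genes was thus below that of all IDs at both times.

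For most of the other genes the difference was small. The log2 change was within 0.2 in 46 of the 62 genes at 4 weeks (74.2%, against 54.3% of all IDs) and in 41 at 8 weeks (66.1%, against 42.3%). The median log2 change over the 62 was 0.035 at 4 weeks and 0.058 at 8 weeks, beside 0.00034 and 0.0073 over all IDs. For the 46 genes with a mean of at least 100 the SE of the log2 change had a median of 0.092 at 4 weeks and 0.098 at 8 weeks, and 39 and 34 of these were within 0.2. By subunit, 2 of 34 large-subunit and 2 of 22 small-subunit genes were called at 4 weeks, and 5 and 2 at 8 weeks, all higher. The libraries of banding and sham did not overlap for 4 of the 62 genes at 4 weeks and for 9 at 8 weeks, against 13.3% and 25.2% of all IDs.

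**Figure D2:**
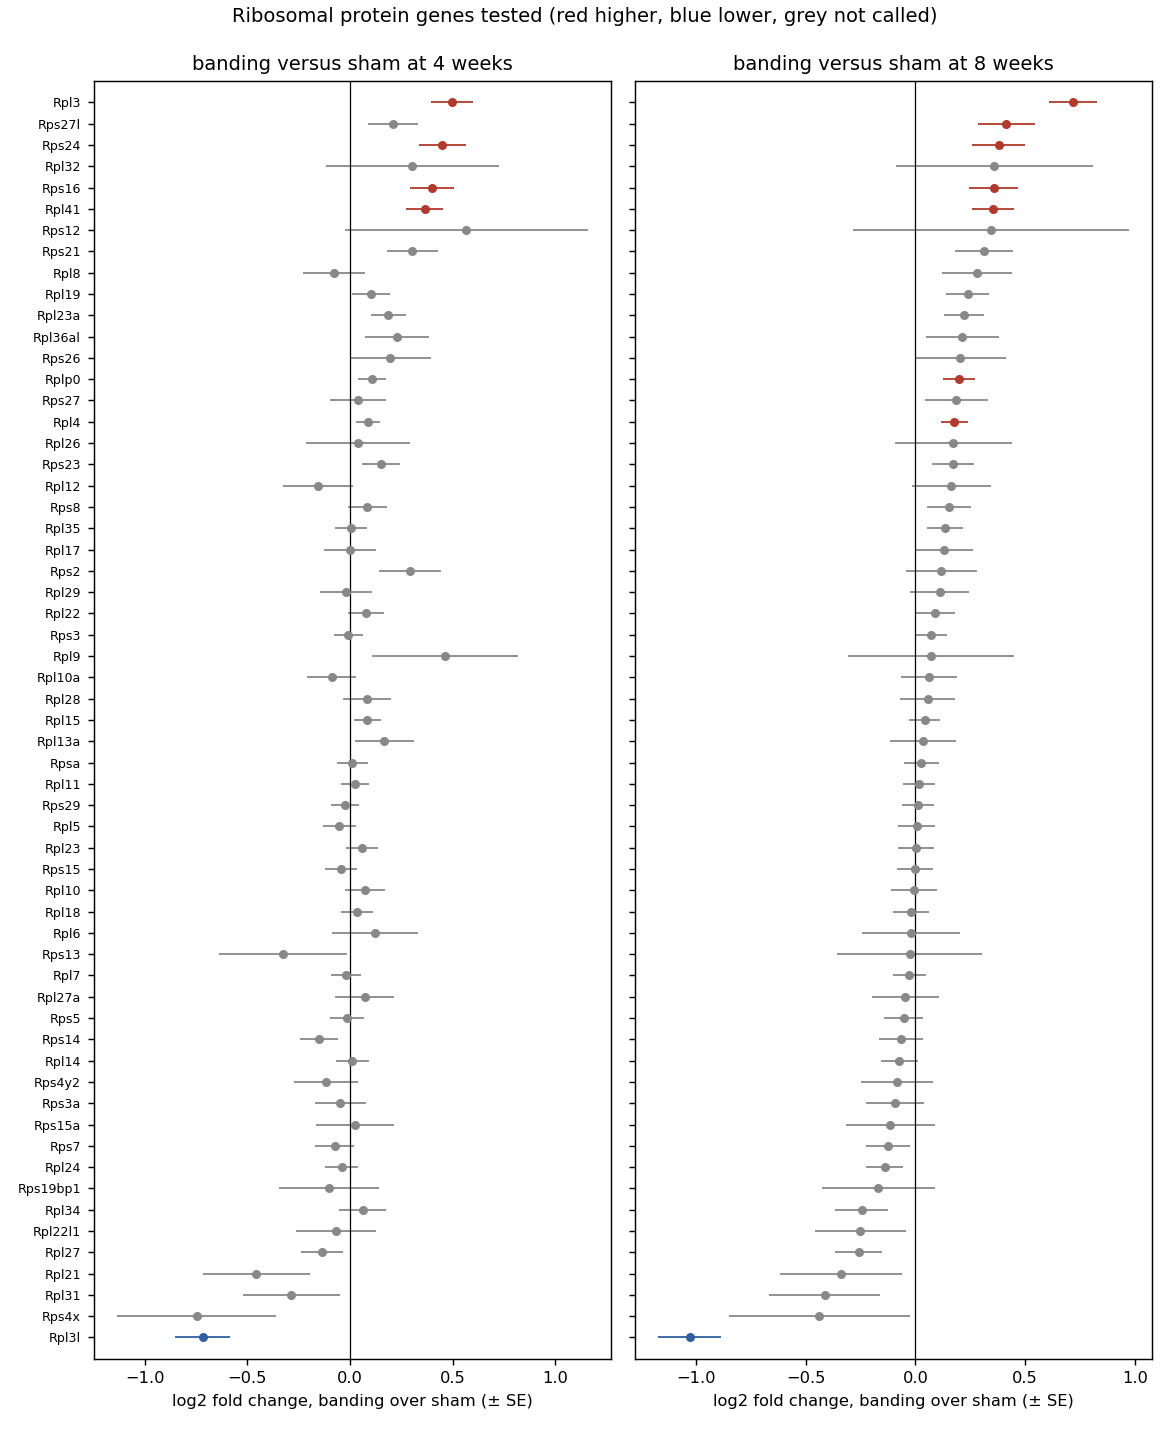
Log2 fold change of banding over sham (± SE) for 59 of the 62 tested genes at 4 weeks (left) and 8 weeks (right), ordered by the change at 8 weeks. Red genes were called higher, blue lower and grey not called; Rpl3 lies at the top and Rpl3l at the bottom at 8 weeks.

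The genes of the paralog pair moved in opposite directions. Rpl3 had 1391, 1060, 1615, 1286 and 1134 normalized counts in the 5 sham libraries at 4 weeks and 1874, 1691, 1900.5, 1666 and 1935 in the 5 banding libraries. Every banding library was above every sham library. Rpl3 rose by 0.50 ± 0.10 on the log2 scale (± SE, limma adjusted p = 0.0015), or 1.41-fold.

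At 8 weeks the sham libraries had 1349, 979.5, 976, 1072 and 1353 counts of Rpl3 and the banding libraries 1920.5, 1814, 1836 and 1896. Again the groups did not overlap, and the banding libraries lay close together. The rise was 0.72 ± 0.11 (adjusted p = 2.89e-05), or 1.65-fold.

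Rpl3l had 1333, 1764, 1192, 1959 and 1804 counts in sham at 4 weeks and 1052, 963, 822, 1012 and 973 in banding. All banding libraries were below all sham libraries, and the sham libraries were the more scattered. Rpl3l fell by 0.72 ± 0.13 on the log2 scale (adjusted p = 0.000525). At 8 weeks sham had 1548, 1856, 2163, 2055 and 1394 counts and banding 1067, 725, 871 and 856, without overlap. The fall was by 1.03 ± 0.14 (adjusted p = 8.26e-06).

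The sum of both genes stayed in overlapping ranges. It was 2908 ± 204 normalized counts in sham and 2778 ± 130 in banding at 4 weeks, and 2949 ± 176 and 2746 ± 185 at 8 weeks (SD, n = 5, 5, 5 and 4). The share of Rpl3l in the pair, not corrected for length, was 55.1 ± 8.94% in sham and 34.7 ± 2.98% in banding at 4 weeks. At 8 weeks it was 60.9 ± 8.18% and 31.9 ± 2.97%. No banding library exceeded 37.8% and no sham library was below 42.5%. A share within a library does not depend on its size factor.

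**Figure D3:**
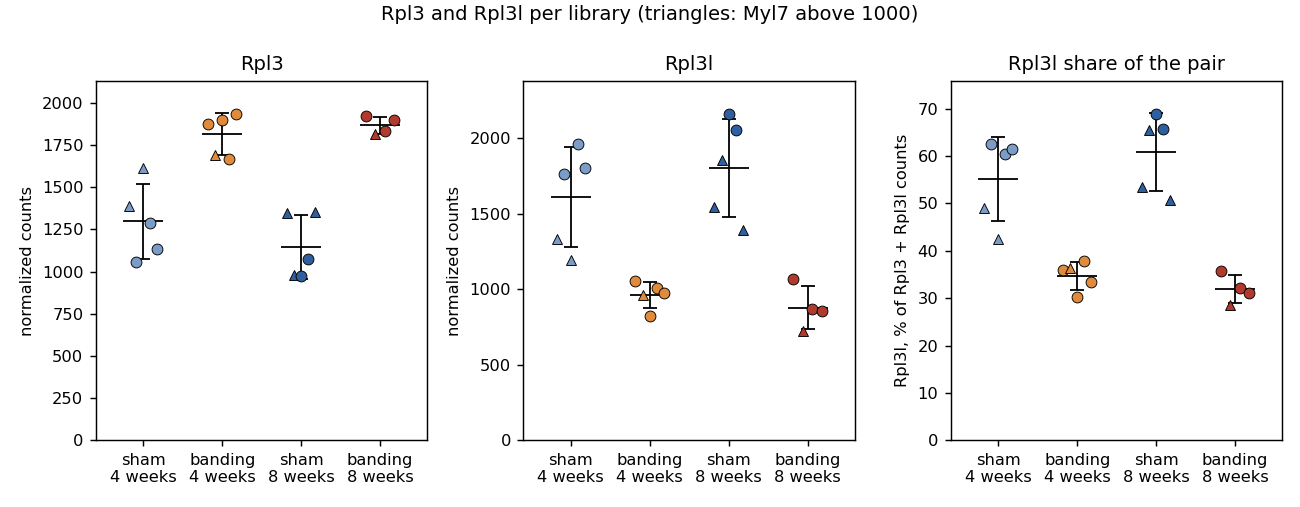
Normalized counts of Rpl3 (left) and Rpl3l (middle) and the share of Rpl3l in their sum (right) in each library; lines are group means ± SD, and triangles mark the 7 libraries with Myl7 above 1000. Banding libraries lie above sham for Rpl3 and below sham for Rpl3l at both times, and the share runs from 28.6 to 37.8% in banding and from 42.5 to 68.9% in sham.

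Within the sham groups Rpl3l was lower in the libraries rich in Myl7. At 4 weeks Rpl3l was 1192 to 1333 in the 2 sham libraries above the Myl7 limit and 1764 to 1959 in the other 3. At 8 weeks it was 1394 to 1856 in 3 such libraries and 2055 to 2163 in the other 2. Sham replicate 2 at 8 weeks, with 1856 counts of Rpl3l and 979.5 of Rpl3, had a Myl7 of 1006, only just above the limit. Rpl3 at 4 weeks was 1391 to 1615 above the limit and 1060 to 1286 at or under it, whereas at 8 weeks its ranges of 979.5 to 1353 and 976 to 1072 overlapped. Without the 7 libraries both changes were larger: the log2 changes were 0.67 at 4 weeks and 0.88 at 8 weeks for Rpl3, and -0.94 and -1.19 for Rpl3l, all called.

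The promoters of this pair are shown because its members moved apart. Below are the 250 bases before each annotated start, from RefSeq (GRCr8), 5′ to 3′ on the gene's strand. Capitals mark matches, on either strand, to a TATA box (TATAA), an ETS core (CCGGAA), an E-box (CANNTG), an MCAT element (CATTCC) or a MEF2-like motif (CTA and TAG with 4 bases of any kind between them).
Rpl3, chr7:113507991-113508240, minus strand: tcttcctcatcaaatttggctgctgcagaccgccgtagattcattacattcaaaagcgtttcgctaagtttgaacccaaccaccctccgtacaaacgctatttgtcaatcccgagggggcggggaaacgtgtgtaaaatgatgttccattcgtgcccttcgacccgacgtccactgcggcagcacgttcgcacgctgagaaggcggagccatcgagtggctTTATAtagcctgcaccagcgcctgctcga
Rpl3l, chr10:14258196-14258445, plus strand: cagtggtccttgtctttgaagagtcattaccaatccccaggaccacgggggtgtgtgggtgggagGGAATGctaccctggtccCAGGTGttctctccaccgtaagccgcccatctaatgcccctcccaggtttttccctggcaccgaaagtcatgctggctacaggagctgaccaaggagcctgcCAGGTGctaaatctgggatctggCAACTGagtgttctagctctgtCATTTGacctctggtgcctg
The Rpl3 sequence holds a TATA box match whose first base lies at -29 from the start. The Rpl3l sequence holds 4 E-box matches, at -167, -65, -42 and -20, and 1 MCAT match at -185. E-boxes and MCAT elements are known as binding sites of muscle transcription factors, but a match of a few letters is a description and not a site. Of all 27457 promoters listed, 65.2% hold an E-box, 11.8% an MCAT match and 24.1% a TATA box.

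Of the 77 canonical genes 62 had a promoter in the same table. In their 250 bases an ETS core was found in 38.7% (13.4% of all promoters), a TATA box in 22.6%, an E-box in 43.5%, an MCAT match in 9.68% and a MEF2-like motif in 0% (3.43% of all). A run of at least 5 pyrimidines that reached within 10 bases of the annotated start was present in 54 of the 62 (87.1%), against 43.2% of all promoters. The 30 bases around the annotated start, 15 on each side, are given for 8 genes that were called, with that run in capitals.
Rpl3, chr7:113507976-113508005, minus strand: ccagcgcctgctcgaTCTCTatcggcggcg
Rps24, chr16:96502-96531, plus strand: tgagcggTCCTCTTTTCCTCCTTTacagct
Rplp0, chr12:46718376-46718405, minus strand: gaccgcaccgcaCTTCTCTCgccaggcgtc
Rpl4, chr8:73566462-73566491, plus strand: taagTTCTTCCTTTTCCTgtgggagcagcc
Rpl41, chr7:1563483-1563512, minus strand: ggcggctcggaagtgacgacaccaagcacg
Rps16, chr1:92770643-92770672, plus strand: cctggaaaatcggtcggggtggccccaagc
Rps27l, chr8:76443643-76443672, plus strand: gtttattcatttgtcattatttgtggtgtc
Rpl3l, chr10:14258431-14258460, plus strand: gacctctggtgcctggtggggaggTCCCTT
The runs of 17 in Rps24, 14 in Rpl4 and 8 in Rplp0 span the annotated start, so part of each lies upstream of it. For Rpl41, Rps16 and Rps27l no run by this definition was found. The run of Rpl3l, of which the window shows only the first bases, begins after the annotated start. Annotated starts may differ from those used in the heart.

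Among the other large-subunit genes Rpl41, which encodes the smallest ribosomal protein, was called at both times. It had 550, 662, 523, 691 and 585 normalized counts in sham at 4 weeks and 785, 807, 719, 732 and 818 in banding. At 8 weeks sham had 577, 488, 577, 639.5 and 714.5 and banding 815, 721, 736 and 772.5. Banding was above sham without overlap at both times. Rpl41 rose by 0.36 ± 0.09 at 4 weeks (adjusted p = 0.00556) and by 0.35 ± 0.09 at 8 weeks (adjusted p = 0.0060). Leaving out the Myl7-rich libraries gave 0.24 at 4 weeks (adjusted p = 0.0551, the highest of 31 alternatives, the lowest being 0.00166) and 0.35 at 8 weeks (adjusted p = 0.0175).

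Rplp0 and Rpl4 were called only at 8 weeks, by small amounts. Rplp0 ran from 3524 to 3944 in sham and from 3997 to 4701 in banding and rose by 0.20 ± 0.07 (adjusted p = 0.0381). Rpl4, a protein lining the exit tunnel, ran from 1617 to 1738 and from 1844 to 1983 and rose by 0.18 ± 0.06 (adjusted p = 0.0299). The groups did not overlap for either gene. At 4 weeks their changes were 0.11 and 0.09 with adjusted p of 0.321 and 0.344, and no difference between the times was called. With the Myl7-rich libraries left out the 8-week values were 0.24 and 0.19, with adjusted p of 0.0904 and 0.137. Over the 31 alternatives the adjusted p ran from 0.0127 to 0.123 for Rplp0 and from 0.0169 to 0.137 for Rpl4. Single 8-week libraries also ended these calls, and Rplp0 lost its call with the replicate block (0.20, adjusted p = 0.056) and with no filter (0.20, adjusted p = 0.0551). Rplp0 was at 0.16 to 0.21 without sham replicate 1, 3 or 4 or banding replicate 1 or 4. Rpl4 was at 0.16 to 0.18 without sham replicate 1 or 4 or banding replicate 1 or 4. Rpl7 and Rpl10 were not called, with log2 differences of at most 0.07 in size at either time.

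In the small subunit Rps24 and Rps16 were called at both times. Rps24, which takes part in maturation of the small-subunit RNA, had 627, 772, 786, 897 and 724 counts in sham at 4 weeks and 1078, 1023, 969, 954.5 and 1158 in banding, without overlap. It rose by 0.45 ± 0.11 (adjusted p = 0.00657). At 8 weeks sham ran from 618 to 938 and banding from 857 to 1227, with overlap, and the rise was 0.38 ± 0.12 (adjusted p = 0.018). In the 12 libraries low in Myl7 it was 0.38 at 4 weeks (adjusted p = 0.0126) and 0.15 at 8 weeks (adjusted p = 0.404; 0.00689 to 0.404 over the 31 alternatives). The 8-week call was also lost without sham replicate 2 (0.29) and without banding replicate 3 (0.29) or 5 (0.35).

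Rps16 had 333, 314, 301, 448 and 404 counts in sham at 4 weeks and 501, 428, 466, 496 and 461 in banding; replicate 4 of sham lay within the banding range. It rose by 0.40 ± 0.11 (adjusted p = 0.0100). At 8 weeks sham ran from 319 to 390.4 and banding from 372.5 to 532, also with overlap, and the rise was 0.36 ± 0.11 (adjusted p = 0.0178). In the 12 libraries low in Myl7 the changes were 0.32 (adjusted p = 0.105; 0.00178 to 0.105 over the alternatives) and 0.27 (adjusted p = 0.239; 0.00719 to 0.239). The 8-week call was also lost without banding replicate 3 (0.33) or 5 (0.26). Rpsa, which is also known as the laminin receptor, was not called, with log2 differences of 0.01 at 4 weeks and 0.03 at 8 weeks.

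Rps27l, a paralog of Rps27 that p53 induces in human cells, was called at 8 weeks. Sham had 130, 153, 147, 136 and 162 counts and banding 194, 181, 215 and 187, without overlap. The rise was 0.41 ± 0.13 (adjusted p = 0.0174), and 0.49 without the Myl7-rich libraries (adjusted p = 0.018). Without banding replicate 4 it was 0.36 (adjusted p = 0.0583; 0.00334 to 0.0583 over the alternatives). At 4 weeks, where replicate 2 of banding had 130.2 and the other banding libraries 184 to 230, the change was 0.21 ± 0.12 (adjusted p = 0.266), and 0.34 without that replicate (adjusted p = 0.0238; 0.0238 to 0.529 over the alternatives). Rps27 itself was not called (0.04 ± 0.14 and 0.19 ± 0.14).

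The other pairs were not called at either time. The log2 differences at 4 and 8 weeks were 0.08 ± 0.09 and 0.09 ± 0.09 for Rpl22, and -0.07 ± 0.20 and -0.25 ± 0.21 for its paralog Rpl22l1. For Rpl36al they were 0.23 ± 0.16 and 0.21 ± 0.17. Rps4x, with a mean of 7.30, had -0.75 ± 0.39 and -0.44 ± 0.41, and Rps4y2, with a mean of 120, had -0.12 ± 0.16 and -0.08 ± 0.17. Rps4x reached the minimum for testing only through sham libraries (10.94, 11.46 and 13.21 at 4 weeks and 12 at 8 weeks). Its lower values in banding are therefore partly set by that minimum, and no fall can be read from them. Rps19bp1, with a mean of 20.6, had -0.10 ± 0.24 and -0.17 ± 0.26. The errors of Rps4x and Rps19bp1 were wider than for the genes with a mean of at least 100.

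No ribosomal protein gene was called between the times. Between 4 and 8 weeks in sham, limma called 0 of the 62 genes (6.53% of all IDs, 2.67% higher and 3.86% lower), 0 had an unadjusted p under 0.05, and edgeR and DESeq2 also called 0. In banding limma, edgeR and DESeq2 called 0 (1.14% of all IDs for limma, 0.485% higher and 0.659% lower), and 2 genes had an unadjusted p under 0.05. Of these Rpl34, named after its value was seen, had a log2 difference of -0.37. The median log2 change was -0.027 in sham and -0.024 in banding. The banding effect at 8 weeks minus that at 4 weeks was called for 0 genes by all 3 tools (0.0275% of all IDs for limma), with 0 at an unadjusted p under 0.05. It was 0.22 ± 0.15 for Rpl3 (adjusted p = 0.586) and -0.31 ± 0.20 for Rpl3l (adjusted p = 0.554), so a larger effect at 8 weeks was not shown for either gene.

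The summed values of the 86 genes differed little between groups. They were 32233 ± 1872 normalized counts in sham and 33623 ± 2106 in banding at 4 weeks, and 31746 ± 1479 and 33570 ± 1016 at 8 weeks (SD). Single libraries ran from 29384 to 35729, and banding and sham overlapped at both times. The sum made up 0.547 to 0.680% of all normalized counts of a library. It is not corrected for length, and genes with many assigned reads, such as Rplp0 with a mean of 4073, weigh most. The 24 untested genes, with means of at most 6.79, add little to it. Over the 19 libraries the coefficient of variation of the 46 genes with a mean of at least 100 had a median of 11.5%. The lowest was 6.41%, for Rps29 (named after its value was seen), and the highest 35%, for Rpl3l.

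**Figure D4:**
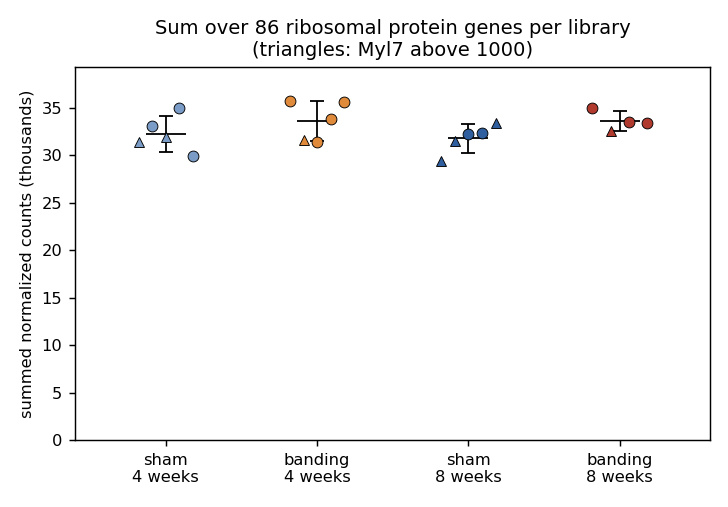
Summed normalized counts (axis in units of 1000) of the 86 genes in each library by group, with group means ± SD; triangles mark libraries with Myl7 above 1000. The libraries run from 29384 to 35729 and banding and sham overlap at both times.

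Proteins that act with the ribosome were read from lists of their own. Of ribosomal genes under other names, Rack1 of the small subunit was not called, with log2 differences of 0.01 at 4 weeks and -0.02 at 8 weeks, and Fau was listed at 0. Among 9 elongation genes, the kinase gene Eef2k included, 2 were higher and 0 lower at 4 weeks. At 8 weeks 5 were higher and 1, Eef2k, was lower. Over all IDs 9.27% were higher and 9.82% lower at 4 weeks, and 16.7% and 16.6% at 8 weeks, which is the background for this and the following lists. With the Myl7-rich libraries left out, 1840 of 10926 IDs were called in either direction at 4 weeks and 2553 at 8 weeks.

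Eef1a1, which delivers aminoacyl-tRNA, ran from 899 to 1374 in sham and from 1192 to 1541 in banding at 4 weeks, with overlap, and rose by 0.34 ± 0.11 (adjusted p = 0.0269; 0.00259 to 0.085 over the alternatives). That call was lost without sham replicate 2 (0.31), 4 (0.31) or 5 (0.28), without banding replicate 3 (0.29) or 5 (0.30), and under quantile normalization. At 8 weeks it ran from 890 to 1189 and from 1214 to 1542, without overlap, and rose by 0.50 ± 0.11 (adjusted p = 0.00137). Its paralog of adult muscle, Eef1a2, was not called, at 0.02 ± 0.09 and -0.18 ± 0.10. Eef1g, a subunit of the exchange factor of Eef1a1, rose by 0.27 and 0.26, and at 8 weeks its partner Eef1b2 rose by 0.36. Eef2k, the kinase that inhibits the translocation factor Eef2, fell by 0.29 at 8 weeks. Its change was -0.28 to -0.25 and not called without sham replicate 2 or banding replicate 1 or 4. Eef2 itself rose by 0.20 at 8 weeks and lost its call in 6 of the 31 alternatives. With the Myl7-rich libraries left out the 8-week count was 2 higher, Eef1a1 (0.50) and Eif5a2 (0.87), and 0 lower. Eif5a2, a paralog of the elongation factor Eif5a, was at 0.53 ± 0.20 with all libraries (adjusted p = 0.0453), ran from 0.45 to 0.87 over the 31 alternatives and lost its call in 12 of them, including edgeR and the replicate block.

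**Figure D5:**
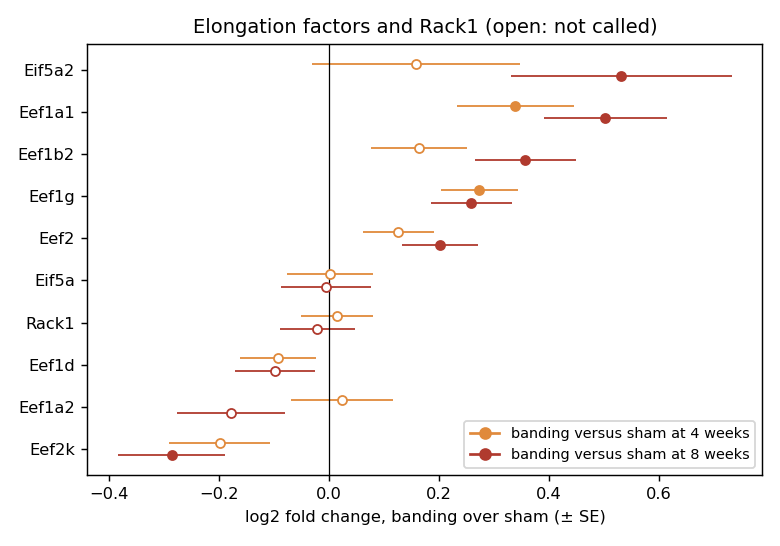
Log2 fold change of banding over sham (± SE) at 4 weeks (orange) and 8 weeks (red) for 9 elongation genes, the kinase gene Eef2k included, and Rack1. Filled points were called. Eef1a1 and Eef1g were called at both times, and Eef1a2 at neither.

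Of 40 initiation factor genes 7 were higher and 0 lower at 4 weeks, and 4 higher and 3 lower at 8 weeks, against 9.27% and 9.82% of all IDs and then 16.7% and 16.6%. Eif3a and Eif3b, subunits of the complex that holds the small subunit, rose by 0.39 and 0.25 at 4 weeks and by 0.34 and 0.29 at 8 weeks. Pabpc1, which binds the poly(A) tail, rose by 0.37 and 0.76. Eif2s3, a subunit of the factor that brings the initiator tRNA, rose by 0.30 at 4 weeks, and Eif2b4, of its exchange factor, fell by 0.33 at 8 weeks. Leaving out the Myl7-rich libraries gave 3 higher and 1 lower at 4 weeks, with Pabpc1 at 0.29 (adjusted p = 0.0539; 0.0018 to 0.0539 over the alternatives).

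Of 70 ribosome assembly genes 8 were higher and 0 lower at 4 weeks, and 5 higher and 5 lower at 8 weeks, against the same 9.27%, 9.82%, 16.7% and 16.6% of all IDs; the 8-week counts lie below that background. Sbds, which frees the large subunit of an assembly factor, rose by 0.50 and 0.38, and Npm1, an abundant nucleolar chaperone, by 0.34 at 4 weeks. Efl1, the GTPase that works with Sbds, fell by 0.30 at 8 weeks, and Nmd3, the export adaptor of the large subunit, by 0.33. In the 12 libraries low in Myl7 the 8-week count was 1 higher and 2 lower. There Sbds was at 0.34 (adjusted p = 0.0559; 0.00249 to 0.0559 over the alternatives), Efl1 at -0.25 (adjusted p = 0.126; 0.00638 to 0.126) and Nmd3 at -0.42 (adjusted p = 0.0332). Of 16 genes of RNA polymerase I transcription limma, edgeR and DESeq2 each called 0 at 4 weeks, with 4 at an unadjusted limma p under 0.05. At 8 weeks 1 was higher and 2 lower, a share below the 33.4% of all IDs called. The higher gene was Myc, a transcription factor counted in this list though no part of that polymerase, which rose by 1.07. Polr1a, the largest subunit, fell by 0.47, and Taf1a, of the promoter factor, fell by 1.06. With the Myl7-rich libraries left out 1 was higher at 4 weeks, and Myc at 8 weeks was at 0.91 (adjusted p = 0.10; 0.0015 to 0.10 over the alternatives). Without banding replicate 1 Myc was at 0.76 (adjusted p = 0.0651).

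Of 22 genes around mTOR and the S6 kinases 4 were higher and 6 lower at 4 weeks, and 2 higher and 6 lower at 8 weeks, against 9.27% higher and 9.82% lower of all IDs and then 16.7% and 16.6%. The kinase gene Rps6ka3 rose by 0.34 and 0.45, and Rps6ka5 fell by 0.45 and 0.90. Rragd, a GTPase that brings mTOR to the lysosome, fell by 0.48 at 4 weeks, and Sesn1, an inhibitor of that route, fell by 0.87 at 8 weeks. Its relative Sesn2, named after its value was seen, rose by 0.54 (adjusted p = 0.00771). Pdk1, which fell by 0.37 and 0.47, encodes a pyruvate dehydrogenase kinase, which is known for its role in glucose oxidation and not in this pathway. At both times Pdk1 is counted among the lower genes. The list also holds the Rps6ka genes, so its counts do not describe the mTOR pathway alone. In the 12 libraries low in Myl7, 2 were higher at 4 weeks and 1 at 8 weeks, 5 were lower at each time, and Rps6ka5 at 4 weeks was at -0.44 (adjusted p = 0.0552; 0.000894 to 0.0552 over the alternatives). Phosphorylation and translation were not measured.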

How the data were processed

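Total RNA of rat right ventricles was extracted with Trizol, and 800 ng went into a TruSeq Ribo-Zero Gold library, per the labels' protocols. STAR, DESeq2 and build rn6 are named in the submitters' processing notes; for the counting program and its strand setting, none is given in the sources used here. As deposited by the authors, the table holds normalized counts, a signal equal to reads over a size factor, for 18282 IDs in 19 libraries. In each library 100% of positive values were whole multiples of the smallest step (tolerance 0.001), so reads were recovered.

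Log2(value + 1) was fitted with limma 3.58.1 in R 4.3.3 (trend, 2-sided) for the 10926 IDs that reached 10 in 4 or more libraries, with all 4 groups in 1 model, and adjusted by Benjamini-Hochberg over all IDs. Calls were made at an adjusted p under 0.05. Fold changes understate those of low genes. Symbols came from a deposited comparison table, and promoters from RefSeq (GRCr8). The script was tested on simulated data. Alternatives were pseudocounts of 0.5 and 5, no filter, a mean of at least 50, TMM, quantile normalization, only the groups compared, all IDs of a gene summed, a replicate block, edgeR 4.0.16 and DESeq2 1.42.0 on recovered reads, each library left out, and the 7 libraries with Myl7 above 1000 left out. Named were up to 6 called genes per direction and comparison, paralog pairs, stalk proteins, the 3 highest and lowest means, and up to 4 called genes per other list by smallest p. Members and lists were chosen with earlier results of these data known. Some genes counted here are not reported by name or drawn.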

Additional observations from a re-analysis of the deposited data

How the results depend on the processing

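The counts of called ribosomal protein genes kept within 1.5 times of those reported at 4 weeks, and at 8 weeks under all settings but the omission of libraries. Leaving out the 7 libraries with Myl7 above 1000 gave 4 higher and 2 lower genes at 8 weeks, from 2 sham and 3 banding libraries. Over all 10926 IDs that setting called 2553, against 3644 with all libraries. The cause was not tested. Leaving out each library in turn gave 4 to 6 higher and 1 lower gene at 4 weeks, and 4 to 9 higher and 1 to 2 lower at 8 weeks. The other 3 comparisons stayed at 0 called genes under every alternative run for them. The setting with only the groups compared was not run for the difference between the banding effects. Rpl3 and Rpl3l kept their calls in all 31 at both times, with Rpl3 from 0.43 to 0.67 and from 0.67 to 0.88, and Rpl3l from -0.94 to -0.64 and from -1.19 to -0.94. At 8 weeks Rplp0 lost its call in 8 alternatives, Rpl4 in 5, Rps24 in 4 (also without replicate 2 of sham and replicates 3 or 5 of banding), Rps16 in 3 and Rps27l in 1 (without replicate 4 of banding, adjusted p = 0.0583). The 8-week count of higher genes was 4 when banding replicate 4 was left out and 5 when sham replicate 1 or banding replicate 1 or 5 was, and 2 genes were lower when sham replicate 1 or banding replicate 3 was left out. No called result reversed its direction; several uncalled values changed sign under some alternative, and at 8 weeks leaving out the Myl7-rich libraries did so for the named ribosomal protein genes Rps4x (to 0.26), Rps27 (to -0.015) and Rpsa (to -0.020). In the 27 same-numbered pairs of libraries the deviations correlated at -0.276 to 0.323, with 7 pairs above 0.1, so the numbers were not taken to pair the samples. With the replicate block 4 genes were higher and 1 lower at 4 weeks, and 7 higher and 1 lower at 8 weeks, where Rplp0 lost its call. Genes with few assigned reads, 24 of the 86, could not be tested.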
